A study of Mus musculus with 30 samples.

Results

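The brain arrays of an angiotensin II infusion experiment in mice were examined for changes present at both late time points. They are 6 of the 30 Affymetrix mouse expression arrays of the series: 2 arrays of brain at day 0, which received no angiotensin II, 2 arrays after 3 days of infusion and 2 after 7 days. The 4 infused arrays were pooled and compared with the 2 day 0 arrays. All donors were male C57BL/6 mice, 8 to 10 weeks old. Angiotensin II, dissolved in Ringer's solution, was delivered by an implanted osmotic pump at 1500 ng/kg/min. The labels do not say whether day 0 mice carried a pump or received the vehicle, which part of the brain was taken, or which organs came from the same mouse. The arrays are numbered as biological replicates, but nothing says that each came from a separate animal, so the p-values measure only the spread between these arrays. Heart (3 arrays a day), kidney (2 a day) and vessel (1 a day) of the same experiment, with the same infusion and the same days, serve here only to show where brain differed. Values are log2(intensity + 16) of 1 probe set per gene, and 14097 genes were tested.

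Angiotensin II is the active peptide of the renin-angiotensin system and raises blood pressure, drinking and salt appetite. In brain its type 1 receptor is found mainly in the organs that lack a blood-brain barrier and in hypothalamic and brainstem nuclei that govern vasopressin release and sympathetic outflow. Infused peptide reaches those organs and the inner face of brain vessels, and hypertension of this kind is known for effects on barrier endothelium, perivascular macrophages and microglia. Genes of glia, vessels and neuronal activity are therefore described first, and genes that mark the sampled brain region are described apart from them.

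The RNA was from brain on all 6 arrays, but the 2 day 0 arrays differed from each other in what else they held. Snap25, a synaptic protein of neurons, had intensities from 7706 to 8666 on the brain arrays and at most 41.8 in heart. The heart myosin gene Myh6 had at most 22.5 in brain. Day 0 replicate 1 correlated with the other 5 arrays at 0.92 to 0.966 over the tested genes, while no pair among the other 5 was below 0.974. Genes of 5 further tissues were listed after their values had been seen, as a description only. All 12 liver genes and all 12 kidney tubule genes had their highest value on day 0 replicate 1, with list medians of 7.53 and 7.02 on the log2 scale against 5.21 to 5.45 and 5.06 to 5.71 on the other arrays. Alb, the serum albumin made by liver, had an intensity of 1686 there and 16.5 to 62.7 elsewhere. Kap, an abundant kidney transcript, had 4031 on day 0 replicate 1 and 3511 on day 7 replicate 2, against 17.4 to 103 on the rest.

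Genes of the forebrain were low on the same day 0 array. Of 10 genes of excitatory forebrain neurons, 9 were lowest on day 0 replicate 1, with a median of 7.08 against 10.83 to 11.97 on the other arrays. Camk2a, the kinase of excitatory synapses, had an intensity of 338 there and 3739 to 6788 elsewhere. Of 12 Hox genes, listed for hindbrain and spinal cord, 9 were highest on that array. Hoxa5, Hoxb5 and Hoxb6 were next highest on day 7 replicate 2, the other array with high Kap. Hoxb3 and Hoxc4 were instead next highest on day 3 replicate 2. The part of kidney RNA in the Hox values was not tested. Day 0 replicate 2 carried a different set: 12 of 13 bone marrow and bone genes were highest on it, with a median of 8.88 against 5.81 to 6.19. S100a8, a neutrophil calcium-binding protein, had an intensity of 3658 on day 0 replicate 2, 384 on replicate 1 and 132 to 343 on the infused arrays. Every change below is therefore given against the mean of both day 0 arrays and, where it matters, against each alone. The part of these differences in the results was not tested, except where a value is given.

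**Figure D1:**
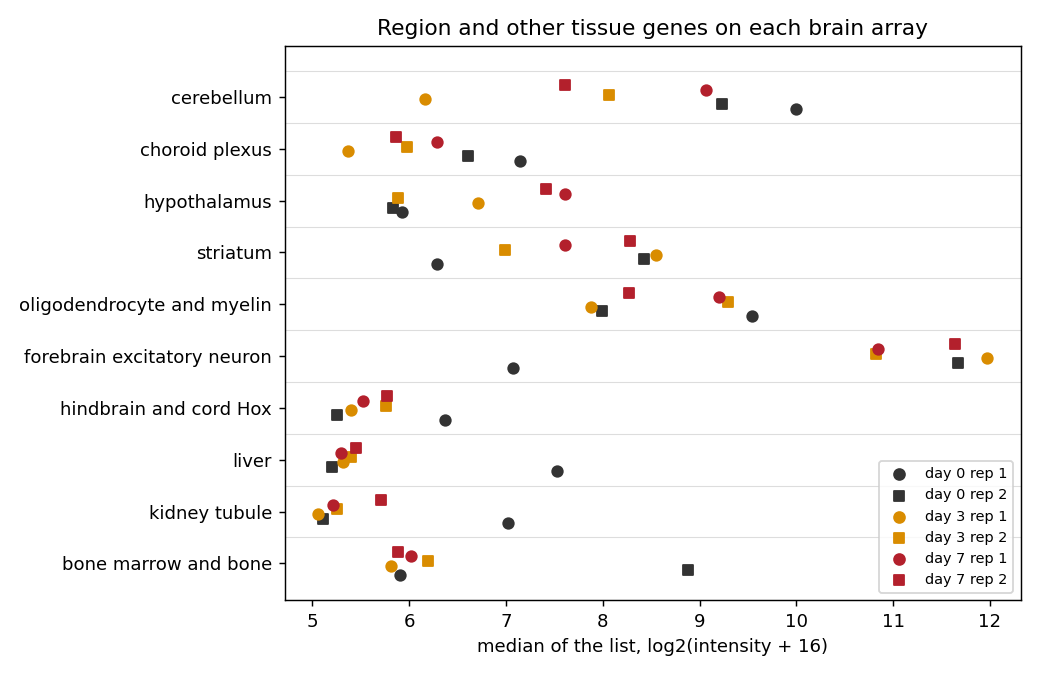
Median level of region, cell type and other tissue gene lists (log2(intensity + 16), horizontal axis) on each of the 6 brain arrays, 1 point per array. The liver and kidney tubule lists are high on day 0 replicate 1 (7.53 and 7.02), the bone marrow and bone list on day 0 replicate 2 (8.88), and the forebrain excitatory list is low on day 0 replicate 1 (7.08).

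No gene passed the test of a change shared by both days. With limma and Benjamini-Hochberg adjustment, 0 of 14097 genes (0%) had an adjusted p under 0.05 in the pooled comparison, and the smallest adjusted p was 0.16. At an unadjusted p under 0.05 there were 1969 genes (14%), of which 679 (4.82%) were higher and 1290 (9.15%) lower at days 3 and 7. Counts of list members at that p are to be read against these shares. On 1407 genes (9.98%) all 4 infused arrays lay above both day 0 arrays, and on 2067 genes (14.7%) they lay below. That split turned to 1871 above and 1307 below when the arrays were quantile normalized again. By sign alone, 7823 genes were lower and 6274 higher, which turned to 6489 and 7608 with the same step, so sign counts of the lists are to be read against these. The median gene moved by 0.15 in either direction, while the 2 day 0 arrays differed from each other by a median of 0.22, and on 9164 genes (65%) the gap between the day 0 arrays was the larger. An exact permutation test of a single gene has 15 splits here and cannot go below p = 0.0667. The number of arrays, 2 of them at day 0, limits the precision of every value.

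The calls depended on which day 0 array was kept. Leaving out 1 of them sets 4 arrays against 1, with the spread taken from the infused arrays alone and the lone day 0 array assumed to vary like them. Without day 0 replicate 1, limma called 10 genes, with Gm715 higher and 9 lower, among them Col1a1, Camp, Ltf and Ngp, the genes high on day 0 replicate 2. Without day 0 replicate 2 it called 68 genes, 22 higher and 46 lower. The lower ones included liver genes such as Apoc3 and Alb, and the higher ones included forebrain genes such as Egr3, Camk2a and Nrgn. The genes described below are consequently not calls. They are those with the smallest p whose infused arrays lay wholly on 1 side of both day 0 arrays, and the members of each list with the smallest p.

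Zcchc12 had the smallest p among the genes higher at both days. This gene, of a transcriptional coactivator of brain, had log2 values of 8.30 and 8.71 at day 0, 9.67 and 9.75 at day 3, and 9.63 and 9.94 at day 7. It was higher by 1.24 ± 0.15 (SE, n = 4 against 2 arrays; limma adjusted p = 0.323), by 1.45 against day 0 replicate 1 and 1.03 against replicate 2. All 4 infused arrays stood close together and well above both day 0 arrays. Grp, the gene of gastrin-releasing peptide, had 6.70 and 6.99 at day 0, 8.06 and 8.56 at day 3, and 8.60 and 8.94 at day 7. Its difference of 1.70 ± 0.24 was the widest of the 10, and the 2 groups did not overlap. In heart and kidney Grp was at 4.99 and 5.02 at day 0 and differed by 0.09 and 0.05 at days 3 and 7. Over the infused arrays Grp had the same order as Baiap3 of the hypothalamic list (7.83, 8.14, 8.23 and 8.49), while Glra2, given below, did not. Only listed region genes were left out of these 10, and the part of sampled region in them was not tested.

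Minar2, a membrane protein gene of neurons, read 8.87 and 8.90 at day 0, 9.98 and 10.34 at day 3, and 10.08 and 10.55 at day 7. It was higher by 1.35 ± 0.17, with the 2 day 0 arrays nearly equal. On the single vessel arrays the same gene differed by 1.88. Those arrays also varied in neuronal genes: Snap25 had intensities of 6.73 to 658, and the general neuronal list had a vessel median of 1.73. The part of nerve tissue in the vessel value was not tested. Glra2, a subunit of the glycine receptor, read 5.96 and 6.09 at day 0, 7.20 and 6.88 at day 3, and 6.80 and 7.22 at day 7, a difference of 1.00 ± 0.15. Slc7a3, a carrier of cationic amino acids, was higher by 1.08 ± 0.14, and Impact, an imprinted gene that restrains the amino acid starvation kinase Gcn2, by 0.85 ± 0.13. Wdr6 (0.84 ± 0.14), Dleu7 (0.80 ± 0.13) and the glutathione transferase gene Gstm6 (0.56 ± 0.09) completed the group with Sgk1, which is described with the glucocorticoid genes. All 10 had an adjusted p of 0.323. With the mean of all probe sets the change was 0.77 for Minar2 and 0.31 for Impact, and with an added value of 64 it was 0.70 for Slc7a3, 0.66 for Glra2 and 0.32 for Gstm6.

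Among the genes lower at both days, Hp had the smallest p of all. Hp encodes haptoglobin, the plasma protein that binds free haemoglobin. It read 6.32 and 6.27 at day 0, 5.15 and 5.28 at day 3, and 5.27 and 5.11 at day 7. The difference was -1.09 ± 0.09 (SE, n = 4 against 2; limma adjusted p = 0.16), and it was of like size against either day 0 array (-1.11 and -1.07). The infused arrays had intensities of 18.6 to 22.8, below the 40th percentile of each of those arrays. Hp thus passed the filter only through the 2 day 0 arrays, where it was high. Genes admitted in that way are lower at days 3 and 7 by selection, so its p is no support for the fall. The size is loosely measured: it was -0.58 with an added value of 64 and -1.54 with 1. In the other organs the point estimates ran the opposite way, with 1.01 in heart, 1.72 in kidney and 1.79 in vessel, but the difference between brain and heart did not pass (adjusted p = 0.451). Hp is abundant in vessel, where it stood at 11.78 at day 0. Day 0 replicate 1 carried liver transcripts and day 0 replicate 2 bone marrow transcripts, as given above. Their part in the level of Hp at day 0 was not tested.

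Tnc encodes tenascin C, a matrix protein of injured and remodelling tissue. Its values were 6.82 and 6.79 at day 0, 5.81 and 6.02 at day 3, and 6.10 and 5.83 at day 7, a difference of -0.86 ± 0.11. In heart it differed by 2.13 and in vessel by 2.29, in the other direction, and the difference between brain and heart had an adjusted p of 0.0531. Ceacam1, a cell adhesion molecule of epithelium, endothelium and leukocytes, read 6.82 and 6.95 at day 0, 6.08 and 6.00 at day 3, and 6.00 and 6.16 at day 7. It was lower by 0.82 on the log2 scale (-0.82 ± 0.09), and the groups did not overlap. Its brightest probe set in brain differed by 0.15 instead, and the mean of all 8 gave -0.31. Kidney held more of it, at 9.53 at day 0.

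The other 7 lower genes differed by -0.54 to -1.16. Wscd2 had the widest difference, -1.16 ± 0.19, from 10.43 and 9.95 at day 0 to 8.71 to 9.19 on the infused arrays. Mcm5, part of the replicative helicase, read 7.35 and 7.18 at day 0 and 6.59 to 6.72 after infusion, a difference of -0.59 ± 0.09. Gm5089 (-0.81 ± 0.11), Cmya5 (-0.73 ± 0.12), Cbfa2t3, a transcriptional corepressor (-0.63 ± 0.09), Tmem168 (-0.57 ± 0.09) and Tnfaip2 (-0.54 ± 0.09) made up the rest. Probe sets disagreed for several of them. Tnfaip2 was read from a dim probe set in brain (mean intensity 16.9), and its 2 brighter ones, at 36.6 and 50.9, differed by -0.04 and -0.0095. Like Hp, Tnfaip2 passed the filter only through the 2 day 0 arrays, so its direction came with the selection. A probe set of Tmem168 as bright as the one used differed by -0.23. With the mean of all probe sets the change was -0.19 for both genes, -0.42 for Cbfa2t3, -0.31 for Mcm5 and -0.43 for Tnc. All but Hp had an adjusted p of 0.323.

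**Figure D2:**
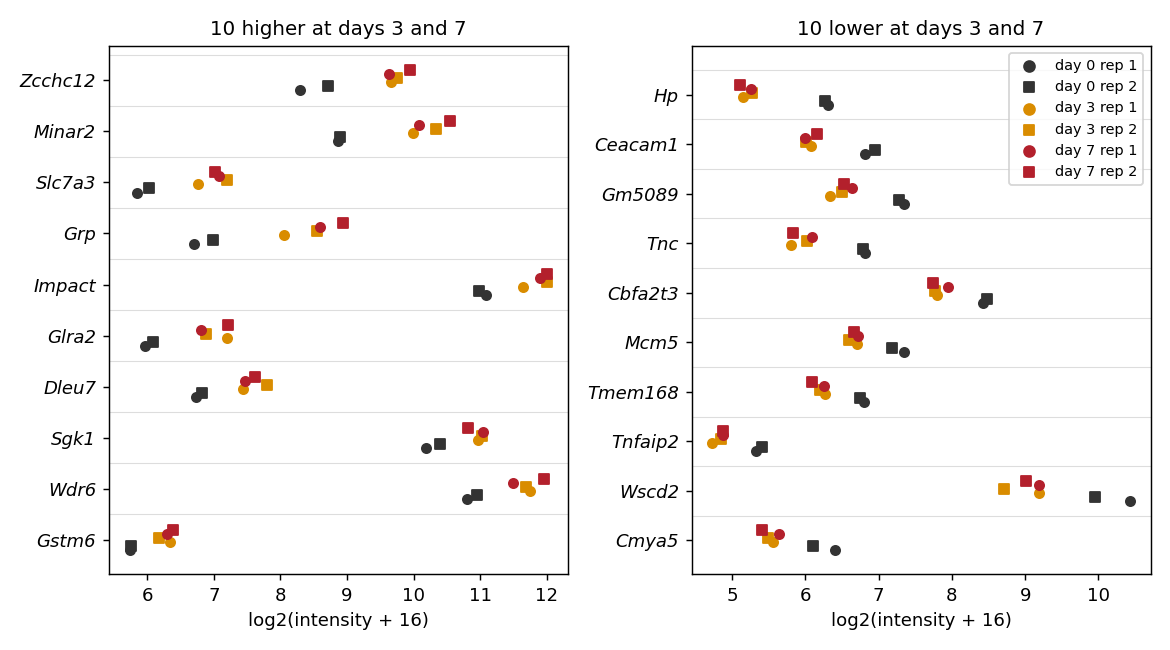
Level of the 10 genes with the smallest p in each direction (log2(intensity + 16), horizontal axis), 1 point per array. The day 0 points lie apart from all 4 infused points for each gene, since the genes were chosen for that, and none passed the adjusted threshold (smallest adjusted p 0.16, for Hp).

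Interferon-stimulated genes were lower in most cases. These genes encode antiviral proteins, guanylate-binding GTPases and immunoproteasome subunits, and are switched on through transcription factors that bind the interferon-stimulated response element in their promoters. The promoters of Ifit1 and Gbp2 are shown because they carry that element close to the start of transcription. They come from RefSeq, mouse build GRCm38.p6, plus strand, at chr19:34640639-34640938 and chr3:142620413-142620712, and cover the bases before the start and the first 50 after it. Capitals mark each match to GAAANNGAAA on either strand.
Ifit1: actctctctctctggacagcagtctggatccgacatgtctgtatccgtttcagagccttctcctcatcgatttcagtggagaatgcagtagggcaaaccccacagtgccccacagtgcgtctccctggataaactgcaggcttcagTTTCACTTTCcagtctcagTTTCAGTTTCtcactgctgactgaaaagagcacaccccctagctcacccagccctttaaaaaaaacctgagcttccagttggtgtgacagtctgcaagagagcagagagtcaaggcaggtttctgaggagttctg
Gbp2: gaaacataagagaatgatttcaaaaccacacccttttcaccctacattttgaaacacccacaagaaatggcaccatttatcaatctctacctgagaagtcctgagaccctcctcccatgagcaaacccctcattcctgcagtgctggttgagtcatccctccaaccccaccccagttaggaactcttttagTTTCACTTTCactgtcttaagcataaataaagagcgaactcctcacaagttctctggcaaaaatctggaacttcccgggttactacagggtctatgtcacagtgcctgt
The search for this motif was added after the values had been seen. It matched in 14 of the 22 interferon genes with a window in the table (63.6%) and in 3.99% of all 27025 genes. Ifit1 has 2 matches and Gbp2 has 1.

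Of 26 tested interferon genes, 22 were lower and 4 higher, with a median change of -0.41 against -0.03 over all tested genes. None passed the adjusted threshold. At an unadjusted p under 0.05, 14 were lower and none higher, where 9.15% of all genes were lower and 4.82% higher. On 13 of the 26, all 4 infused arrays lay below both day 0 arrays, where 14.7% of all genes did. The list's median was -0.55 against day 0 replicate 1 and -0.19 against replicate 2. Of the 26, 20 were lower against each of them, as were 4916 of all 14097 genes. The size of this median thus differed between the 2 day 0 arrays and its direction did not. Both day 0 arrays carried RNA of other tissues, and such genes can be higher there. At day 0 Psmb8 stood at 9.23 in heart and 8.18 in kidney, and Gbp2 at 9.49 and 8.05. The part of that RNA in the interferon changes was not tested.

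Psmb8, an immunoproteasome subunit, had the smallest p of this list. It read 6.87 and 6.97 at day 0, 6.15 and 6.33 at day 3, and 6.36 and 6.44 at day 7, a difference of -0.60 ± 0.11 (limma adjusted p = 0.323). Gbp2, a guanylate-binding protein, read 6.47 and 6.62 at day 0, 6.01 and 6.04 at day 3, and 6.17 and 6.03 at day 7, a difference of -0.48 ± 0.09. For both genes the day 0 arrays were close to each other. Ifit1, an antiviral protein that binds foreign RNA, behaved differently: it read 7.61 on day 0 replicate 1 and 6.44 on replicate 2, with 6.02 to 6.25 on the infused arrays. Its change of -0.88 ± 0.30 was -1.47 against the first and -0.29 against the second. Stat2 (-0.34 ± 0.09), Igtp (-0.40 ± 0.09) and Psmb9 (-0.38 ± 0.11) were lower by like amounts against either day 0 array. The same 26 genes had median changes of -0.23 in heart, -0.36 in kidney and 1.06 on the single vessel arrays.

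Of 11 tested antigen presentation genes, 2 were lower at an unadjusted p under 0.05 and none was higher, with a median of -0.22. Over all genes, 9.15% were lower and 4.82% higher at that p. H2-K1, a class I heavy chain, read 9.59 and 9.44 at day 0, 8.72 and 8.76 at day 3, and 8.85 and 9.16 at day 7 (-0.64 ± 0.14). It stood at 12.31 in heart and 12.30 in kidney at day 0. The part of other tissue RNA in its level on the day 0 brain arrays was not tested. H2-Ab1, a class II chain, had overlapping groups, with -0.17 against day 0 replicate 1 and -0.65 against replicate 2.

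Genes of brain endothelium and the blood-brain barrier were also mostly lower. Of 33 tested, 27 were lower and 6 higher, with a median of -0.17. At an unadjusted p under 0.05, 9 were lower and 1 higher, where 9.15% of all genes were lower and 4.82% higher. For 13 the infused arrays lay wholly below both day 0 arrays, as they did for 14.7% of all genes. The medians against each day 0 array were -0.21 and -0.16, so they were alike. In bulk tissue, fewer endothelial cells in a sample and less RNA of these genes per cell cannot be told apart. The same genes had medians of -0.04 in heart, 0.12 in kidney and 0.02 in vessel.

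Cldn5, the main claudin of barrier tight junctions, read 8.87 and 8.77 at day 0, 8.28 and 8.43 at day 3, and 8.35 and 8.42 at day 7. It was lower by 0.45 on the log2 scale (-0.45 ± 0.09, limma adjusted p = 0.323). Tek, the endothelial receptor of angiopoietins, read 6.81 and 6.91 at day 0, 6.47 and 6.39 at day 3, and 6.46 and 6.46 at day 7, a difference of -0.41 ± 0.08. Both genes had day 0 arrays in close accord and infused arrays within a narrow range below them. The receptors of vascular endothelial growth factor were lower as well, Flt1 by -0.49 ± 0.13 and Kdr by -0.31 ± 0.10. The thyroxine transporter Slco1c1 differed by -0.58 ± 0.14 and the efflux pump Abcb1a by -0.35 ± 0.11. Ocln, the gene of occludin, had -0.88 ± 0.26, but with 7.41 and 6.65 at day 0 it also differed widely between those 2 arrays. Eng, a co-receptor of the TGF beta family, was the 1 member whose infused arrays lay wholly above day 0 (0.34 ± 0.13). Slc2a1, the glucose transporter of the barrier, read 10.53 and 10.42 at day 0 and 10.52 to 10.59 after infusion, and the groups overlapped (0.08 ± 0.08).

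Other vessel lists showed smaller differences. Of 15 endothelial activation genes 1 was higher and none lower at an unadjusted p under 0.05, with a median of 0.16 that was 0.28 against day 0 replicate 1 and -0.02 against replicate 2. Ch25h, an oxysterol-making enzyme, read 5.42 and 5.82 at day 0 and 5.82 to 6.42 after infusion. Cxcl1, a neutrophil chemokine, read 5.91 and 6.51 and then 6.51 to 6.77. Of 23 pericyte and smooth muscle genes 2 passed that p and were lower, Higd1b (-0.26 ± 0.09) and Abcc9 (-0.33 ± 0.14), and the median was 0.03. Of 21 meningeal fibroblast genes 2 passed it and were lower, with a median of -0.09 (0.21 and -0.40 against each day 0 array). These were Igfbp2, which binds insulin-like growth factors (-0.50 ± 0.16), and Slc13a3, a dicarboxylate transporter (-0.52 ± 0.19). Slc13a3 stood at 11.15 in kidney at day 0 and was highest in brain on day 0 replicate 1, the array with kidney transcripts. Of 31 matrix and basement membrane genes 2 passed it as higher and 2 as lower, with a median of -0.01. Timp2, an inhibitor of metalloproteinases, read 10.21 and 10.72 at day 0 and 11.06 to 11.27 after infusion (0.75 ± 0.16). Of 17 vasoactive signalling genes 1 passed it as lower and none as higher, with a median of -0.01; it was Pde5a, the cyclic GMP phosphodiesterase, which is also expressed by Purkinje cells and read 8.80 and 7.85 at day 0 and 6.18 to 7.84 after infusion. Avpr1a, a vasopressin receptor, differed by 0.25 ± 0.11.

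**Figure D3:**
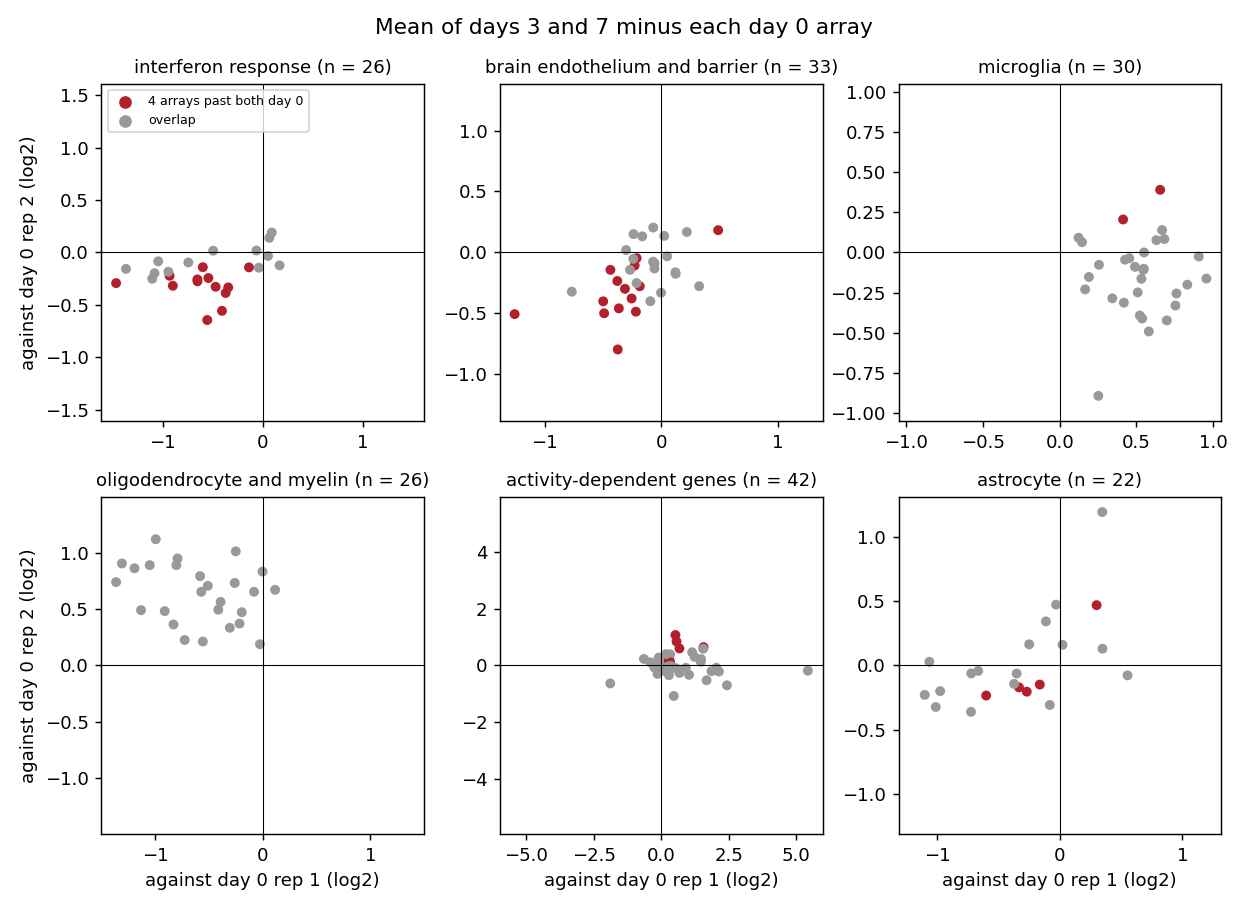
Each point is 1 tested gene of the named list, placed by the mean of the 4 infused arrays minus day 0 replicate 1 (horizontal, log2) and minus day 0 replicate 2 (vertical, log2); red points have all 4 infused arrays past both day 0 arrays. Interferon and endothelial genes fall mainly in the lower left part (20 of 26 and 22 of 33, against 4916 of all 14097 tested genes). Myelin genes fall in the upper left (medians -0.56 and 0.66) and microglial genes mostly to the right (medians 0.53 and -0.13).

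Microglial genes were slightly higher on average, but only against 1 day 0 array. Of 30 tested, 28 were higher and 2 lower, with a median of 0.20, and 2 had an unadjusted p under 0.05. The median was 0.53 against day 0 replicate 1 and -0.13 against replicate 2, so the direction turned with the array used. Sall1, the transcription factor that keeps microglial identity, read 5.71 and 5.97 at day 0, 6.40 and 6.26 at day 3, and 6.26 and 6.54 at day 7 (0.52 ± 0.13). Trem2, a lipid-sensing receptor of microglia, read 6.40 and 6.61, then 7.02 and 6.75, then 6.79 and 6.70 (0.31 ± 0.12). These 2 were the members whose infused arrays cleared both day 0 arrays, where 9.98% of all genes did. P2ry12 and Tmem119, which mark resting microglia, differed by 0.10 ± 0.19 and 0.21 ± 0.18, and the complement gene C1qa by 0.40 ± 0.17.

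Of 16 activated microglia genes, 12 were lower and 4 higher, with a median of -0.16, and 1 was lower and 1 higher at an unadjusted p under 0.05. Lgals3, the gene of galectin 3, read 6.78 and 7.00 at day 0, 5.55 and 5.86 at day 3, and 6.33 and 5.56 at day 7, a difference of -1.06 ± 0.24. In heart it differed by 0.91 the other way, and brain minus heart was -1.96 (adjusted p = 0.0373, and 0.139 without day 0 replicate 1). Ccl4, a chemokine of microglia, read 6.11 and 6.17 at day 0 and 6.39 to 6.68 after infusion (0.40 ± 0.10). Of 24 chemokine and cytokine genes 19 were higher and 5 lower, with a median of 0.16. At an unadjusted p under 0.05, 4 were higher and 1 lower, against 4.82% and 9.15% of all genes. Il6st, the shared receptor chain of the interleukin 6 family, was the 1 lower gene (-0.42 ± 0.13). Several genes of this list had low values on every array, such as Ccl2 at 5.24 to 5.55 and Ccl7 at 4.87 to 5.43.

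Genes of blood cells differed between the day 0 arrays. Of 16 genes of perivascular macrophages and blood myeloid cells, 6 were lower at an unadjusted p under 0.05 and none higher. Over all genes, 9.15% were lower and 4.82% higher at that p. The list's median was 0.16 against day 0 replicate 1 and -0.79 against replicate 2. Ngp, a neutrophil granule protein, read 7.08 and 10.22 at day 0 and 5.88 to 6.58 after infusion, and Plac8 read 6.66 and 7.93 and then 5.93 to 6.47. With the median of this list as a covariate, a choice made after seeing the data, limma called 484 genes. That median was 7.56 on day 0 replicate 2 and 5.93 to 6.17 on the other arrays. The covariate thus mainly sets that array apart, and the fit leans on day 0 replicate 1. Its calls included Alb, Klk1, Camk2a and Egr3, which stood apart on day 0 replicate 1. Of 6 lymphocyte genes 5 were higher, 1 of them (Cd4) at an unadjusted p under 0.05, with a median of 0.16. Cd4 read 6.25 and 6.48 and then 6.65 to 6.72, and Cd8a overlapped. The 3 red cell genes tested were lower by a median of -0.13 and none passed; Slc4a1 differed by -0.28 ± 0.22 and Hbb-b2 by -0.06 ± 0.22.

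Astrocyte genes varied with the array. Of 22 tested, 15 were lower and 7 higher, with a median of -0.22 (-0.30 and -0.07 against each day 0 array). Aldh1l1, a folate enzyme that marks astrocytes, read 8.37 and 8.01 at day 0, 7.75 and 7.93 at day 3, and 7.80 and 7.61 at day 7 (-0.42 ± 0.14). It stood at 10.56 in kidney at day 0, and the part of kidney RNA on day 0 replicate 1 was not tested. Fgfr3, a growth factor receptor of astrocytes, read 9.19 and 9.02, then 9.31 and 9.69, then 9.32 and 9.64 (0.39 ± 0.15). Aqp4, the water channel of astrocyte endfeet, read 11.08 and 10.40 at day 0 and 9.56 to 10.53 after infusion, with overlap. Of 29 reactive astrocyte genes 6 were lower and none higher at an unadjusted p under 0.05, against 9.15% and 4.82% of all genes. The list's median was 0.01. Gfap, the filament protein that rises in reactive gliosis, differed by 0.12 ± 0.19. Its probe set was weak in all brains, with intensities of 114 to 182. Psmb8 and Gbp2, given above, and Vim (-0.63 ± 0.20) were among the lower members.

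Oligodendrocyte genes showed no shared direction. Of 26 tested, none had an unadjusted p under 0.05 and none had infused arrays wholly beyond both day 0 arrays. Over all genes, 9.98% had infused arrays wholly above and 14.7% wholly below. The list's median level was 9.54 and 8.00 at day 0, 7.88 and 9.30 at day 3, and 9.20 and 8.27 at day 7. High and low arrays thus occurred within each group, and the change was -0.56 against day 0 replicate 1 and 0.66 against replicate 2. Mag, a myelin adhesion protein, ranged from 7.71 to 9.76 in step with the list. Myrf, the factor that drives myelin genes, differed by 0.42 ± 0.34 and Olig2 by 0.39 ± 0.28. Among 11 precursor genes Ptprz1, a phosphatase receptor, was lower (-0.45 ± 0.11) and Cacng4, a subunit of glutamate receptors, higher (0.54 ± 0.17), with a list median of 0.06.

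Activity-dependent genes, which neurons switch on within minutes of firing, were more often higher than lower. Of 42 tested, 29 were higher and 13 lower, with a median of 0.23. At an unadjusted p under 0.05, 8 were higher and 1 lower, where 4.82% of all genes were higher and 9.15% lower. On 7 all infused arrays lay above both day 0 arrays, as they did on 9.98% of all genes. The medians were 0.41 against day 0 replicate 1 and -0.03 against replicate 2. A median of 0.22 in heart, 0.14 in kidney and 0.51 in vessel for the same genes was of like sign.

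Arc, which regulates glutamate receptors at active synapses, read 6.22 and 7.14 at day 0, 7.75 and 7.77 at day 3, and 7.71 and 7.90 at day 7. The difference was 1.11 ± 0.24 (limma adjusted p = 0.323), 1.56 against day 0 replicate 1 and 0.65 against replicate 2. The 4 infused arrays stood close together and above both day 0 arrays. Scg2, the precursor of secretoneurin, read 10.91 and 10.35, then 11.23 and 11.46, then 11.47 and 11.56 (0.80 ± 0.17). Fos, an early transcription factor widely used as a marker of firing, read 8.98 and 8.70, then 9.08 and 9.95, then 9.48 and 9.67 (0.71 ± 0.24). Fos also differed by 1.36 in heart, 0.94 in kidney and 1.34 in vessel.

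Egr3 showed how far a single day 0 array could carry this list. It read 5.38 on day 0 replicate 1, 10.99 on replicate 2 and 10.36 to 11.25 on the infused arrays. Its change of 2.62 ± 1.39 was 5.42 against the first and -0.18 against the second. Egr1 (1.86 and -0.20) had the same form, and Arc, Fos and Scg2 did not. The CRE motif TGACGTCA, on either strand of the RefSeq windows, was present in 5 of the 33 activity genes with a window (15.2%) and in 2.03% of all genes. The AP-1 motif TGACTCA, whose reverse complement is TGAGTCA, was present in 1 of 33 (3.03%) and in 5.95% of all. The E-box CACGTG was present in 9 of 33 (27.3%) and in 8.09% of all.

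Neuronal lists also differed between the 2 day 0 arrays. Of 19 general neuronal genes 12 were higher and 7 lower, with a median of 0.08. Uchl1, an abundant neuronal deubiquitinase, read 11.07 and 11.13 at day 0 and 11.55 to 11.77 after infusion (0.56 ± 0.10). Gap43, a growth cone protein, read 10.44 and 10.73 and then 10.96 to 11.44 (0.64 ± 0.17). Both had separate groups. Of 18 glutamatergic genes 13 were higher and 5 lower (1 and 2 of them at an unadjusted p under 0.05), and the median of 0.43 was 1.13 against day 0 replicate 1 and -0.44 against replicate 2. Against the list's direction, Neurod2, a cortical transcription factor, was lower (8.52 and 8.40, then 7.48 to 7.98). Fezf2, of deep cortical layers, was higher, at 4.48 and 6.27 at day 0 and 6.28 to 6.64 after infusion. Its change was 2.03 against day 0 replicate 1 and 0.24 against replicate 2. Of 17 GABAergic genes 12 were higher and 5 lower, with a median of 0.35 (0.66 and -0.01). Of these, 1 was higher and 2 lower at an unadjusted p under 0.05, and the 2 with the smallest p ran against the median. Gabrd, a receptor subunit abundant in cerebellar granule cells, differed by -1.08 ± 0.32 and Reln by -1.05 ± 0.32.

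Among 25 glucocorticoid-responsive genes, 4 were higher and 1 lower at an unadjusted p under 0.05, against 4.82% and 9.15% of all genes. The list's median was 0.08. Sgk1 encodes the kinase that mediates much of the effect of mineralocorticoids and glucocorticoids on sodium channels. It read 10.19 and 10.39 at day 0, 10.97 and 11.03 at day 3, and 11.04 and 10.82 at day 7. The difference was 0.67 ± 0.11 (limma adjusted p = 0.323), 0.77 and 0.57 against each day 0 array. It differed by 0.41 in heart, 0.60 in kidney and 0.67 in vessel, so the direction was the same in all 4 organs, and brain minus heart was 0.26 (adjusted p = 0.758). Its promoter is shown because 1 of its 6 windows in the RefSeq table, at chr10:21993640-21993939 (GRCm38.p6, plus strand), holds an exact glucocorticoid response element, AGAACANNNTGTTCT, in capitals.
Sgk1: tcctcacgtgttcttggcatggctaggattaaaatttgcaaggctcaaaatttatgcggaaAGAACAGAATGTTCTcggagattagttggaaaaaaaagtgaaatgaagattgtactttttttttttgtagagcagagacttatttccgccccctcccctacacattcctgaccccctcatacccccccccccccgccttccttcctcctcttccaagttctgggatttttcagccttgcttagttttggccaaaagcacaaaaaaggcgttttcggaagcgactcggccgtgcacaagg
This full palindrome occurs in the windows of 3 of 27025 genes (0.0111%) and of 1 of 21 glucocorticoid genes (4.76%).

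The other members of this list were smaller in size. Zbtb16 read 7.59 and 7.91 at day 0 and 8.02 to 8.57 after infusion (0.52 ± 0.17), Nfkbia, the inhibitor of NF-kappa B, differed by 0.32 ± 0.13 and Ddit4, an inhibitor of the growth kinase mTOR, by 0.31 ± 0.12. Fkbp5, a chaperone widely used as a readout of the hormone, was at 7.64 and 8.20 and then 8.09 to 9.14, with overlap. Pdk4, a kinase that spares glucose, was the lower one (-0.30 ± 0.12). The medians of this list elsewhere were 0.24 in heart, 0.39 in kidney and 0.58 in vessel.

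**Figure D4:**
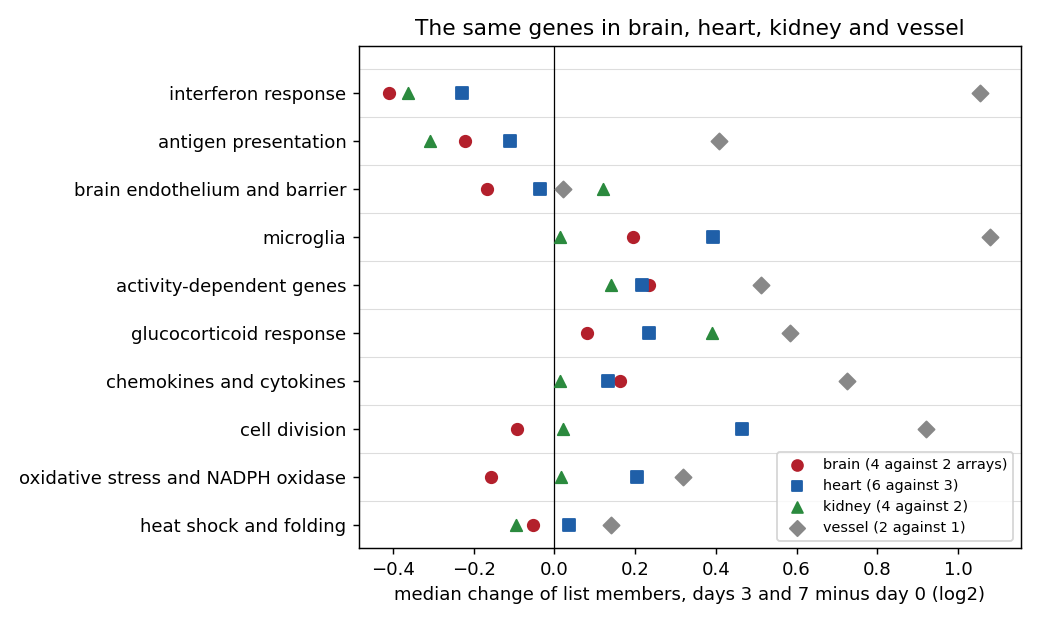
Median change of the tested members of each list at days 3 and 7 against day 0 (log2, horizontal axis) in brain (4 against 2 arrays), heart (6 against 3), kidney (4 against 2) and vessel (2 against 1). The interferon list lies below 0 in brain, heart and kidney (-0.41, -0.23 and -0.36) and at 1.06 in vessel, and brain is the lowest of the 4 for the endothelial (-0.17), cell division (-0.09) and oxidative stress (-0.16) lists.

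Stress and metabolic lists held few differences. Of 20 clock genes 4 were lower and none higher at an unadjusted p under 0.05, against 9.15% and 4.82% of all genes. The list's median was -0.10. Arntl, the positive arm of the clock, read 7.99 and 8.02 at day 0 and 7.33 to 7.67 after infusion (-0.53 ± 0.12), and the repressor Nfil3 differed by -0.55 ± 0.15. The E-box was present in 5 of 18 clock genes with a window (27.8%). The labels give no time of day for tissue collection. Of 30 heat shock and folding genes 4 were lower and 1 higher at that p, with a median of -0.05. Hspb1, a small heat shock protein, was the lower one with the smallest p (-0.41 ± 0.12), and Hsp90aa1 was higher (0.29 ± 0.10). Probe sets of Hsp90aa1 that were brighter in brain differed by only 0.09 and -0.0018. The heat shock element GAANNTTCNNGAA was present in 4 of 26 of their windows (15.4%) and in 0.662% of all genes.

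Of 24 oxidative stress and NADPH oxidase genes 18 were lower and 6 higher, with a median of -0.16. At an unadjusted p under 0.05, 5 were lower and none higher, against 9.15% and 4.82% of all genes. Cyba, the membrane subunit p22phox of the oxidases that angiotensin II activates, read 7.30 and 7.17 at day 0, 6.48 and 6.78 at day 3, and 6.79 and 6.76 at day 7 (-0.53 ± 0.12). Nqo1, a quinone reductase, differed by -0.56 ± 0.18. Cybb, the phagocyte oxidase subunit, read 5.23 and 6.35 at day 0 and 5.13 to 5.33 after infusion, so it was high on the single array with bone marrow genes. Of 22 hypoxia and glycolysis genes 14 were lower and 8 higher, with a median of -0.09. At an unadjusted p under 0.05, 1 was higher and 2 lower; the lower ones were Hk2, a hexokinase (-0.55 ± 0.18), and Mxi1 (-0.25 ± 0.09).

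Of 16 cell division genes 11 were lower and 5 higher, with a median of -0.09 against 0.46 in heart and 0.92 in vessel. By unadjusted p under 0.05, 1 was higher and 3 lower. Tpx2, a spindle protein, was the higher one (5.08 and 5.41 at day 0, 5.61 to 6.01 after infusion), and Mcm5 is given above. Of 22 cholesterol and fatty acid synthesis genes 16 were lower and 6 higher, with a median of -0.10. The same p left 1 higher and 2 lower; the lower ones were Mvd (-0.35 ± 0.09) and Sc5d (-0.34 ± 0.12). Of 23 oxidative phosphorylation genes none passed an unadjusted p under 0.05, with a median of -0.08, and the members with the smallest p were Ndufs1 (-0.34 ± 0.17) and Ndufv1 (-0.20 ± 0.11).

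The renin-angiotensin genes themselves showed no shared difference. Of 12 tested, none passed an unadjusted p under 0.05, and the median was -0.08. Agt, the precursor of angiotensin, which astrocytes make in brain, read 9.17 and 7.54 at day 0, 7.82 and 9.02 at day 3, and 9.06 and 8.61 at day 7. High and low arrays occurred at days 0 and 3, and the difference of 0.27 ± 0.53 was -0.54 against day 0 replicate 1 and 1.09 against replicate 2. Agtr1a, the type 1 receptor, read 5.54 and 4.86, then 5.18 and 5.39, then 5.46 and 5.35 (0.15 ± 0.19). Ace, the converting enzyme, read 6.97 and 6.95, then 6.93 and 6.76, then 6.74 and 6.84 (-0.14 ± 0.09). Enpep, the aminopeptidase that cleaves angiotensin II, differed by -0.51 ± 0.23 with overlap, and Nr3c1, the glucocorticoid receptor, by -0.19 ± 0.09. Enpep read 7.40 on day 0 replicate 1, the array with kidney transcripts, 6.60 on replicate 2, and 11.43 in kidney at day 0. Agtr1b, Agtr2, Mas1 and Ren1 were not among the genes tested.

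The cerebellar, choroid plexus and hypothalamic lists had wider median changes than any list above, and their levels differed between arrays of 1 group. Of 23 choroid plexus genes all 23 were lower, with a median of -0.89. On 14 the infused arrays lay wholly below day 0, as they did on 14.7% of all genes. Ttr, the thyroid hormone carrier of choroid plexus, read 14.29 and 14.24 at day 0, 6.61 and 11.05 at day 3, and 14.19 and 9.84 at day 7. Day 7 replicate 1 was thus almost at the day 0 level, while day 3 replicate 1 was the lowest of the 6. Steap1 read 6.68 and 6.46 at day 0 and 5.03 to 5.76 after infusion (-1.25 ± 0.20), and Slc13a4, a sulphate transporter of choroid plexus and meninges, differed by -0.81 ± 0.15. Of 20 cerebellar genes 19 were lower, with a median of -1.68. The list's median level was highest on day 0 replicate 1, at 9.23 on replicate 2, 6.17 and 8.06 at day 3, and 9.07 and 7.61 at day 7. Slc1a6, the glutamate transporter of Purkinje cells, differed by -1.85 ± 0.59 and Barhl2 by -1.31 ± 0.27.

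Hypothalamic genes ran the other way. Of 22 tested, 21 were higher, with a median of 0.61. On 10 the infused arrays lay wholly above day 0, as they did on 9.98% of all genes. Members that passed the filter only through infused arrays are higher by selection, and Calcr, counted in both, is 1 of them. Pmch, the melanin-concentrating hormone gene of the lateral hypothalamus, read 5.27 and 5.59 at day 0, 10.22 and 5.43 at day 3, and 11.22 and 11.10 at day 7, so day 3 replicate 2 was at the day 0 level. Oxt, the oxytocin gene, read 6.94 and 8.35, then 8.25 and 7.29, then 9.88 and 10.37. Avp, the vasopressin gene, read 6.71 and 8.44, then 8.23 and 6.52, then 9.25 and 10.29. For both peptides the day 3 arrays lay within the day 0 range or close to it, and the day 7 arrays above. Baiap3 (1.48 ± 0.21) and Hap1 (0.92 ± 0.15), both abundant in hypothalamus, were higher on all 4 infused arrays, including the array with Pmch at the day 0 level.

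The remaining region lists are given by their counts at an unadjusted p under 0.05, where 4.82% of all genes were higher and 9.15% lower. Of 18 striatal genes none passed, with a median of 0.61 that was 1.33 and -0.18 against each day 0 array; Prkcd differed by -0.93 ± 0.43 in the thalamic list and Drd2 by 0.68 ± 0.34 and Tac1 by 1.32 ± 0.69 in the striatal list. Of 12 thalamic genes none passed (median 0.14), and Adarb1 differed by -0.29 ± 0.15. Of 19 cortical and hippocampal genes 1 was higher and 2 lower (median 0.35). Tdo2 read 7.64 and 6.08 at day 0 and 5.12 to 5.56 after infusion. It was highest on day 0 replicate 1, the array with liver and kidney transcripts, whose part was not tested. Of 19 midbrain and hindbrain genes 1 was higher and 1 lower (median 0.21), Dbh by 0.28 ± 0.10 and Uncx by -1.26 ± 0.52. Of 7 olfactory bulb genes 4 were higher and 1 lower (median 0.26), with Scgn at 0.41 ± 0.10 and Eomes at -0.85 ± 0.28. Of 12 ependymal genes 1 was higher (median 0.07), namely Meig1 (0.49 ± 0.12), and Tmem212 overlapped. Of 7 pituitary and pineal genes none passed (median -0.28), with Aanat at 0.22 ± 0.10 and Pitx1 at 0.14 ± 0.08. Meig1 and Pitx1 passed the filter only through infused arrays, so their direction came with the selection. Of 10 muscle, heart, kidney and fat genes 3 passed as lower (median -0.54), among them Mb (-0.68 ± 0.19) and Myl2 (-0.71 ± 0.23). Another probe set of Mb, about as bright in brain, differed by 0.28 instead.

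**Figure D5:**
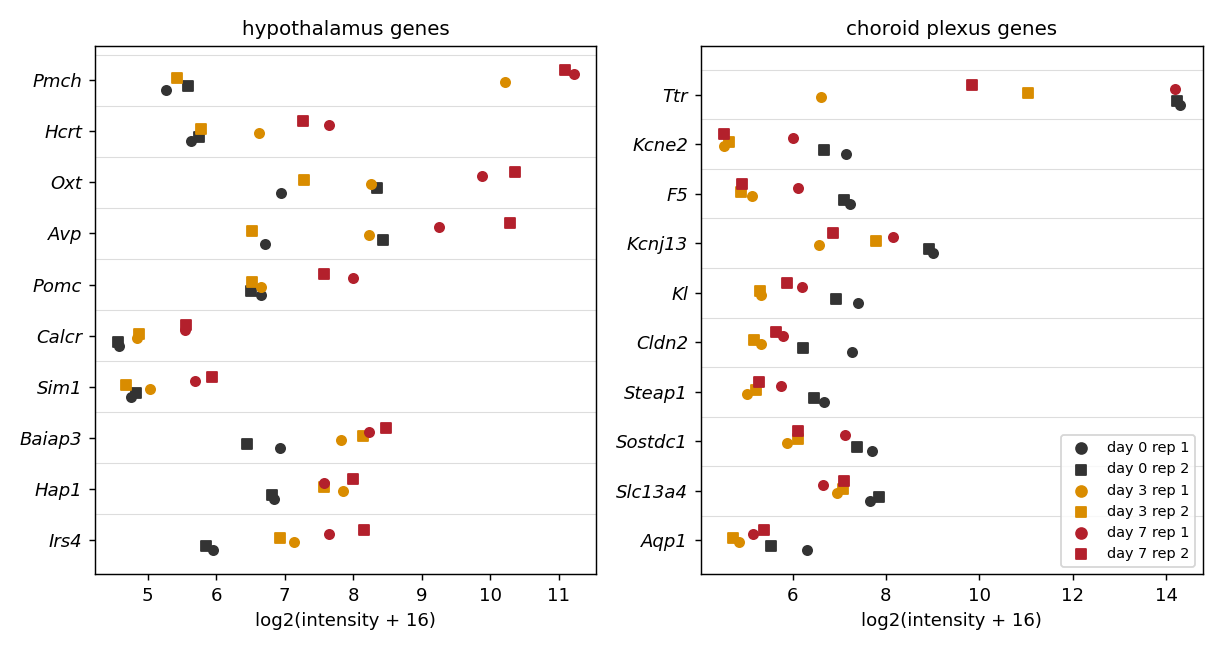
Level of 10 hypothalamic genes (left) and 10 choroid plexus genes (right) on each brain array (log2(intensity + 16), horizontal axis), 1 point per array. Pmch is at 5.43 on day 3 replicate 2 and at 10.22 or more on the other infused arrays, and Ttr ranges from 6.61 to 14.19 among the infused arrays.

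The 2 days were then compared with each other and with day 0 in a fit of 3 groups. The contrasts of day 3 and day 7 share the day 0 arrays, so their likeness is not a result. Limma called 0 genes at day 3, 0 at day 7 and 0 between them. At an unadjusted p under 0.05 there were 1039 (7.37%), 996 (7.07%) and 92 (0.653%) genes. Between the days, the smallest p belonged to Tent5c, a poly(A) polymerase, with 6.25 and 6.17 at day 0, 6.58 and 7.01 at day 3, and 5.25 and 5.52 at day 7. It was followed by Calcr, the calcitonin receptor (4.58 and 4.56, then 4.85 and 4.87, then 5.55 and 5.56), and Pomc, the proopiomelanocortin gene (6.66 and 6.50, then 6.65 and 6.52, then 8.01 and 7.57). Calcr had intensities of 7.59 to 13.3 at days 0 and 3 and passed the filter only through the 2 day 7 arrays. Its p is therefore no support for a difference between the days. Calcr and Pomc are on the hypothalamic list, and Pmch and Oxt were higher on the same 2 day 7 arrays.

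A joint fit of the brain, heart and kidney arrays tested whether a gene's change in brain differed from its change elsewhere. Against heart, 191 of 14097 genes (1.35%) passed, and against kidney 129 (0.915%); brain was the lower of the pair for 116 (0.823%) and 77 (0.546%). Without day 0 replicate 1 these counts were 62 and 43, and without replicate 2 they were 1616 and 1544. Of the 191 and 129, 39 and 26 passed in all 3 fits, of which the last 2 rest on a single brain day 0 array each. Grp was among these, with brain minus heart 1.61 (adjusted p = 4.48e-05) and brain minus kidney 1.64 (0.000131). So were Minar2 (1.35 and 1.32), Slc7a3 (1.22 and 1.09), Glra2 (1.05 and 1.02), Impact (0.94 and 0.84), Baiap3 and Hap1. Several of these genes had low values in heart and kidney, such as Glra2 at 4.49 in both at day 0. For such a gene the contrast is in effect the change in brain alone. The spread in this fit came from all 26 arrays, most of them of heart and kidney. With the brain arrays tested alone, Grp had a limma adjusted p of 0.323. The Sgk1, Psmb8, Gbp2 and Cldn5 changes did not differ between brain and either organ by this test (adjusted p of 0.337 or more), which does not show that they were equal.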

How the data were processed

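RNA from 6 brain samples was hybridised to Affymetrix mouse expression arrays. The deposited values are linear intensities from the authors' use of Affymetrix Expression Console, as named in the submitters' processing notes; for its version and summary algorithm nothing was given in the sources used here. Of 45101 probe sets, 64 were controls, 34945 carried 1 gene symbol, 932 several and 9160 none. For each of 18193 genes the brightest probe set on average over the 30 arrays was kept. The deposited intensities were converted to log2 after adding 16, and the 14097 genes that exceeded percentile 40 of their array at least 2 times among the 6 brain arrays were tested with limma 3.58.1 (R 4.3.3; lmFit, eBayes, two-sided, Benjamini-Hochberg, threshold 0.05). The 4 arrays of days 3 and 7 were compared with the 2 of day 0; days were compared in a fit of 3 groups, and brain with heart and kidney in a joint fit of 26 arrays in 11 groups. On simulated data of the same 14097 genes, the pooled comparison recovered 12 of 67 genes changed by 1.5-fold, 38 of 67 by 2-fold and 60 of 66 by 4-fold, with 7 false calls.

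The genes named are the 10 with the smallest p in each direction among those with separate groups and outside the region and other tissue lists, the 2 with the smallest p in each of 42 lists, the renin-angiotensin genes, and the 3 with the smallest p between days 7 and 3. Genes named beyond these were chosen after their values were seen. The members and lists were chosen with earlier results of these data known. Of 970 list members 898 were on the array and 819 passed the filter. Replicate numbers did not pair the samples: the deviations of same-numbered arrays from their group means correlated at -0.65 (days 0 and 3), 0.47 (days 0 and 7) and -0.58 (days 3 and 7). Promoter windows came from RefSeq (GRCm38.p6; 300 bases, 27025 genes) and were searched on both strands with Python 3.11.15 and pandas 2.3.3. Alternatives covered the filter, the added value, the normalization, the probe set rule, the variance model, the replicate block, each array left out and 3 covariates.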

Additional observations from a re-analysis of the deposited data

Results flagged for a closer look

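In 4 of the 103 named genes the lowest of the 4 infused brain arrays lay far from the other 3, beyond Dixon's critical value for 4 samples. The genes share the same 4 arrays, and many were chosen for groups that lie apart. No chance rate can therefore be set beside this count. The gap was 0.856 of the range for Tnfaip2, 0.96 for Timp2, 0.881 for Cyba and 0.903 for Adarb1. The outlying array was day 3 replicate 1 for Tnfaip2 and Cyba, day 7 replicate 1 for Timp2 and day 7 replicate 2 for Adarb1.

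For other named genes the change in brain differed from that in heart or kidney at an adjusted p under 0.05 in the joint limma fit. The difference, brain minus heart and then brain minus kidney, was 1.61 and 1.64 for Grp, 1.54 and 1.57 for Baiap3, 1.35 and 1.32 for Minar2, 1.22 and 1.09 for Slc7a3, 1.18 and 1.19 for Zcchc12, 1.05 and 1.02 for Glra2, 0.96 and 0.93 for Hap1, 0.94 and 0.84 for Impact, and 0.60 and 0.72 for Calcr. In the other direction it was -1.54 and -1.17 for Steap1, -1.37 and -1.29 for Barhl2, -1.16 and -1.16 for Wscd2, -0.90 and -0.84 for Slc13a4, and -0.89 and -0.79 for Gm5089. Against heart alone it was 0.74 for Gstm6, 0.67 for Pomc, -1.96 for Lgals3, -1.88 for Slc1a6, -1.13 for Gabrd and -0.68 for Mb. Against kidney alone it was 1.35 for Dleu7 and -0.68 for Cbfa2t3. Steap1, Slc13a4, Barhl2, Slc1a6, Baiap3, Hap1, Calcr and Pomc are on the region lists, and Mb on the list of muscle, heart, kidney and fat. Calcr passed the filter only through the 2 day 7 arrays. Grp, Glra2 and Calcr were low in heart and kidney, so their differences are in effect the brain changes. Another probe set of Mb, about as bright in brain, changed there by 0.28 instead. Of the 20 named genes that passed against heart, 12 also passed in the fits without each day 0 brain array in turn, Lgals3 not among them (0.139 without day 0 replicate 1), and of the 16 against kidney 9 did.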

How the results depend on the processing

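The count of 0 genes called in the pooled comparison, and of 0 called with separate groups, held without the filter, with added values of 1 and 64, with quantile normalization, the mean of all probe sets, a trended and robust variance, the replicate block, the cerebellum or choroid plexus list median as a covariate, and without any infused array. Leaving out 1 array gave 0 to 68 calls, with 10 without day 0 replicate 1 and 68 without replicate 2. The joint fit of 3 tissues, which gives brain the spread of the heart and kidney arrays too, called 634 (514 with separate groups). The blood myeloid covariate, chosen like the other covariates after seeing the data, called 484 (218). That covariate was high on day 0 replicate 2 alone (7.56, against 5.93 to 6.17), so its fit leans on day 0 replicate 1. Genes with infused arrays above day 0 were 2284 without the filter and 1576 to 4324 with 1 array left out; those below were 1307 after quantile normalization and 2240 to 5664. Day 7 against day 0 gave 1 call, Pmch (5.73, adjusted p = 0.0307), when only those groups were fitted, and 0 to 1 with 1 array left out. Brain minus heart gave 118 with an added value of 1 and 62 to 1616 without a day 0 array; brain minus kidney gave 45, 69 with the mean of all probe sets and 43 to 1544. The replicate block left the counts of day 3, day 7 and day 7 against day 3 at 0. The cause of these shifts was not tested.

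Single genes whose change turned sign were Hbb-b2 (0.0452 by quantile normalization, 0.163 with the blood myeloid covariate, -0.205 to 0.0778 with 1 array left out), Agt (-0.702 with that covariate, -0.543 to 1.09), Agtr1a (-0.253, -0.193 to 0.487), Myrf (-0.0842, -0.0019 to 0.834) and Tent5c (0.00784, -0.421 to 0.163). The turn came without day 0 replicate 2 for Hbb-b2, Agt, Agtr1a and Myrf, also without day 7 replicate 1 for Hbb-b2 (0.0661), and without day 7 replicate 1 or 2 for Tent5c (0.163, 0.0733). With the cerebellum covariate these were Cd8a (-0.0243) and Prkcd (0.00119). With the choroid plexus covariate they were Cd8a (-0.222), Prkcd (0.598), Slc1a6 (0.370), Uncx (0.633), Pde5a (0.439), Tac1 (-0.699), Ndufs1 (0.0203) and Ndufv1 (0.0199). Of the 42 list medians, 33 turned sign in at least 1 of 14 settings. The 9 that kept it were activated microglia, brain endothelium and barrier, cell division, choroid plexus, hypothalamus, interferon response, general neuron, oxidative stress, and muscle, heart, kidney and fat. Quantile normalization turned 3 medians (matrix, meningeal fibroblast, vasoactive) and moved the median of all genes from -0.03 to 0.02.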

Other observations

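Single genes show how separate the 2 day 0 arrays were. Klk1, a kidney kallikrein, had an intensity of 853 on day 0 replicate 1 and 6.53 to 36.7 on the other 5 arrays. Umod, the uromodulin gene of the kidney's thick ascending limb, had 335 on day 0 replicate 1 and 184 on day 7 replicate 2, against 8.30 to 14.0 elsewhere. Hoxb5, from the list for hindbrain and spinal cord, had 399 on day 0 replicate 1, 79.6 on day 7 replicate 2 and 11.5 to 38.8 elsewhere. It was thus highest on the same 2 arrays as Umod. Col1a1, the main collagen of bone, had 501 on day 0 replicate 2 and 44.0 to 63.3 elsewhere. The medians of 23 of 42 lists had opposite signs when the infused arrays were set against each day 0 array alone. These genes were chosen after their values were seen.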
